A study of Mus musculus with 4 samples.

Results

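A set of 10 genes that mark neutrophils or drive their production was followed across mouse colon: the granulocyte growth factor Csf3, the receptors Csf3r and Cxcr2, the surface protein Ly6g, the calcium-binding proteins S100a8 and S100a9, the secreted protein Retnlg, and the granule proteins Camp, Ngp and Ltf. They were chosen by gene symbol, and they and the gene lists used below were set with earlier results of these data known. Their counts beside the shares of all genes are therefore descriptive only. All 10 were present among the 44788 gene rows of the count table. RNA was sequenced from C57BL/6 colon tissue in 4 libraries, 1 for each combination of genotype label (wild type, WT, or Card9-/-) and treatment. Untreated libraries carry the label day 0. AOM/DSS libraries came from mice given 10 mg/kg of the mutagen azoxymethane (AOM) by intraperitoneal injection and then, from 5 days later, 3 cycles of 2% dextran sulfate sodium (DSS) in drinking water for 7 days each, a model of colitis-associated colon cancer, with collection on day 100. Treatment and time of collection therefore cannot be told apart. The sources used here do not give age, sex or the number of mice behind a library. Since each group is 1 library, spread between replicates could not be measured, and every interval below is a 95% interval that covers counting error only.

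Neutrophils are short-lived phagocytes made in bone marrow under the growth factor G-CSF (Csf3), which acts through its receptor Csf3r. They leave the blood towards chemokines that bind Cxcr2. In the marrow they fill their granules in sequence, with myeloperoxidase and elastase first (primary granules) and lactoferrin (Ltf), the cathelicidin Camp and the neutrophilic granule protein Ngp later (secondary granules), while S100a8 and S100a9 form calprotectin, an abundant protein of the cytosol that binds metal ions. In colon, neutrophils are scarce in health and numerous in active inflammation. Ltf, S100a8, S100a9 and Csf3 can also be made by other cells, among them epithelium under inflammation. In bulk tissue, fewer cells of a type and less RNA per cell cannot be told apart.

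Promoter sequence is shown for 5 members, because S100a8 and S100a9 had similar patterns over the libraries while Ly6g, Ngp and Ltf each followed another. Each stretch runs 5′ to 3′ on the gene's strand and is taken from the 250 bases before the gene's RefSeq start (GRCm38.p6), cut where an exon of the GENCODE M21 annotation begins. Capitals mark matches, on either strand, to the letters TTGCNNAA (a core of C/EBP sites), GAGGAA (a core of PU.1 sites) or TGTGGT (a core of RUNX sites), all families of myeloid transcription factors.
S100a8, chr3:90668821-90668977, plus strand: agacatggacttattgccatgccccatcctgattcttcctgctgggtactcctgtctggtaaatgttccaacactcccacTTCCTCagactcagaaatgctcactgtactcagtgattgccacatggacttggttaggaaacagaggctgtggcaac
S100a9, chr3:90695722-90695971, minus strand: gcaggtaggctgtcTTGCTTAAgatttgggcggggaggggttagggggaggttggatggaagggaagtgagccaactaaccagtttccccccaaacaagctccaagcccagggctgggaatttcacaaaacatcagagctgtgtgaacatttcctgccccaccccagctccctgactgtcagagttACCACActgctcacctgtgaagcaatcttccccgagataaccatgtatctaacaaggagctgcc
Ngp, chr9:110419558-110419746, plus strand: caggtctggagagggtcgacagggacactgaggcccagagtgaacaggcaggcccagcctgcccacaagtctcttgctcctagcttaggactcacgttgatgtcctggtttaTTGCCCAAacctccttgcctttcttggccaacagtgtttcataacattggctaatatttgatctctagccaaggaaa
Ltf, chr9:111019042-111019270, plus strand: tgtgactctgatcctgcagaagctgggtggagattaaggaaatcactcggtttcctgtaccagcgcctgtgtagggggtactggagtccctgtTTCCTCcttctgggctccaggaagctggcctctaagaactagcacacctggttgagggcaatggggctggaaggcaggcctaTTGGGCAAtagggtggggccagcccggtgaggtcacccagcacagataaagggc
Ly6g, chr15:75155011-75155239, plus strand: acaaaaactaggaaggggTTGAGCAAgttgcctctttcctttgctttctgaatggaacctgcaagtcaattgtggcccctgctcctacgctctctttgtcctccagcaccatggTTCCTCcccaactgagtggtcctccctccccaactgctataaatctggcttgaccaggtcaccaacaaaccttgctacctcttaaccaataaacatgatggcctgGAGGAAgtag
RefSeq held an entry for 9 members. Within the 250 bases, the C/EBP letters were found in 5 of the 9 (S100a9, Ngp, Ltf, Ly6g and Retnlg) and in 9.56% of all 32851 windows of that length. For C/EBP, Ly6g was counted by the window shown. The window of its other RefSeq start (chr15:75155079-75155239) held PU.1 letters and no C/EBP letters. The PU.1 letters were found in 5 of the 9 (S100a8, Cxcr2, Csf3r, Ltf and Ly6g) and in 23.3% of all windows, and the RUNX letters in 1 of the 9 (S100a9) and in 14%. A match describes the letters and is no sign of a factor's binding.

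The libraries held 23022885 to 27706567 counts. Levels are counts scaled to library size (CPM), with TMM factors, which ran from 0.9311 to 1.1434. The AOM/DSS library labelled Card9-/- stood apart: across 16383 genes on the log2 scale it correlated with the others at 0.827 to 0.855, while the other 3 correlated with each other at 0.942 to 0.954. Card9, the gene named in the label (chromosome 2, 26352176 to 26360918), stood at 1.75 CPM in untreated WT, 3.18 CPM in the untreated library labelled Card9-/-, 5.32 CPM in WT after AOM/DSS and 7.73 CPM in the AOM/DSS library labelled Card9-/-. It was thus counted in both libraries labelled as lacking it, 1.82-fold higher than in WT when untreated (1.23 to 2.72) and 1.45-fold higher after AOM/DSS (1.16 to 1.83). The table has a single total per gene, so reads over a deleted stretch could not be separated. Every direction drawn from that label rests on the label alone, and these samples are called the libraries labelled knockout. Colon epithelial markers summed to 6094 CPM in the AOM/DSS library labelled knockout and 16860 to 28530 CPM in the others. Of the 6094 CPM, Krt8 gave 3602 CPM. Other markers were low in that library against WT after AOM/DSS: Car1 stood at 28.4 against 5313 CPM and Slc26a3 at 7.17 against 216 CPM. Cdx2 stood at 16.9 against 279 CPM and Muc2 at 905 against 8674 CPM. Of the 8 markers, 6 were lower there by 2-fold or more and 0 higher, against 12.4% lower and 11.9% higher of all genes.

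Neutrophil transcripts were close to absent from untreated colon and plain after AOM/DSS. The 10 genes together reached 399 CPM in WT after AOM/DSS and 294 CPM in the AOM/DSS library labelled knockout, against 4.36 CPM in untreated WT and 60.3 CPM in the untreated library labelled knockout. Of that last value, Ly6g alone made up all but 5.62 CPM. Without Ly6g the order was 4.32 CPM in untreated WT, 5.62 CPM in the untreated library labelled knockout, 369 CPM in WT after AOM/DSS and 241 CPM in its counterpart labelled knockout. To meet the size rule, a gene needed 50 or more counts in one of the 2 libraries compared and a 2-fold or larger difference in log2(CPM + 1), a pseudocount that compresses differences of low genes. Here and for the lists below, a gene under 50 counts in the untreated library could be called only as higher after AOM/DSS. In the WT pair 9 of the 10 met the rule as higher after AOM/DSS, and Camp, with 17 counts at most, lay under the count minimum. Apart from Csf3r, with 64 counts, every member had 23 counts or fewer in untreated WT, so its direction was fixed by the filter. Over all 15356 genes 4.08% were higher and 3.88% lower. In the pair labelled knockout, 7 of the 10 met the rule as higher and 0 as lower, against 14.1% higher and 15.9% lower of 15900 genes. Only Csf3r and Ly6g had 50 or more counts in the untreated library of that pair and could have been called lower. There Csf3 and Camp lay under the count minimum and Ly6g did not differ by that size. Printed folds below are ratios of CPM with no pseudocount. With a count of 0 set to 3 counts, the 10 genes had a median log2 ratio of 5.36 in the WT pair and 5.28 in the pair labelled knockout, while the medians of all genes were 0.02 and 0.03.

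**Figure D1:**
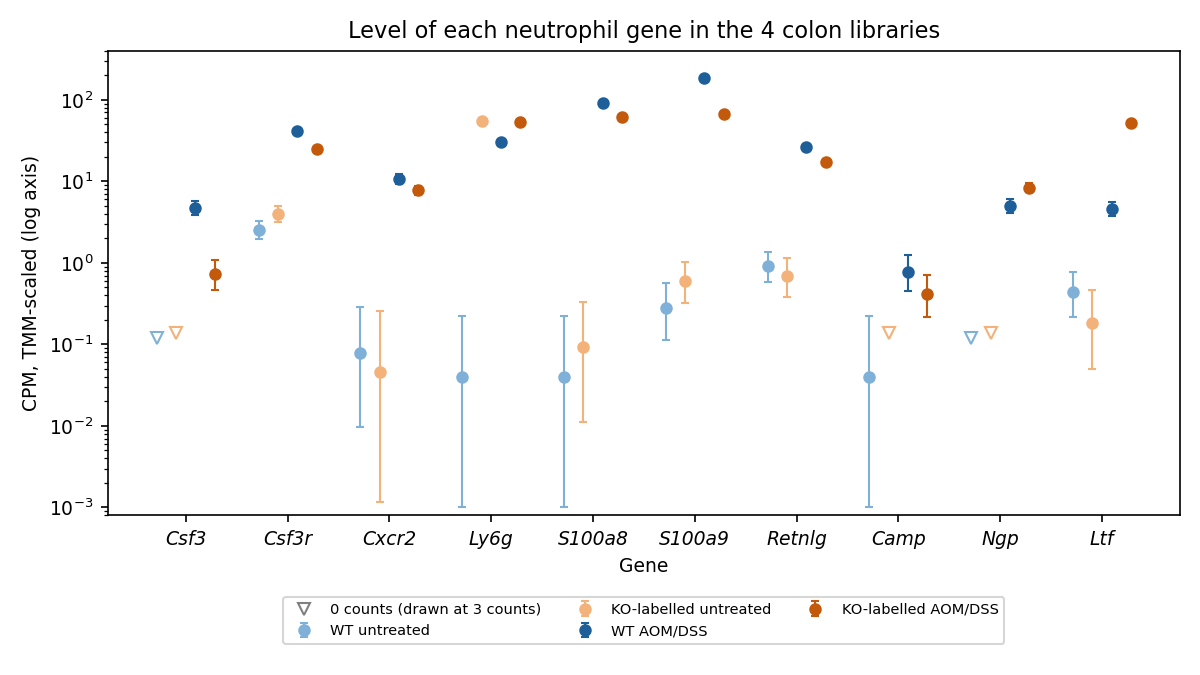
CPM of each gene (log axis) in the 4 libraries, KO-labelled standing for the libraries labelled Card9-/-; bars are exact 95% Poisson intervals of the count, and open triangles mark 0 counts, drawn at the level of 3 counts. The points of the untreated libraries lie below the AOM/DSS libraries for every gene except Ly6g, which stands at 54.7 CPM in the untreated library labelled knockout.

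The only test that the design allows over all 4 libraries is an additive model of treatment and label, fitted with edgeR's quasi-likelihood test on 18889 genes. It has 1 residual degree of freedom, which also holds any difference between the responses. For treatment it called 0 genes at an adjusted p under 0.05 (0.0% of those tested), with 1139 genes, 6.03%, at an unadjusted p under 0.05. Of the 9 members tested, 8 were among the latter and Ly6g was not. S100a8 had the lowest p-value of the members (1.49e-05, adjusted p 0.107 by edgeR), with a fitted log2 change of 10.1. DESeq2 with the same model called 336 genes (1.83% of 18314 with an adjusted p), and 7 of the members: S100a8, S100a9, Cxcr2, Csf3r, Csf3, Retnlg and Ltf. For the label, edgeR called 0 genes (0.0%), with 739 at an unadjusted p under 0.05 and no member among them, and DESeq2 called 255 genes (1.31%) and 0 members. Without the filter on low counts edgeR called 0.271% of genes and 6 members for treatment and 0.207% and 0 members for the label. With library totals alone it called 0.121% and 5 members, and 0.0791% and 0 members.

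Csf3 encodes G-CSF, the cytokine that drives granulocyte production. It lies on chromosome 11 from 98701263 to 98703629 (GRCm38, here and below). It had 0 counts in both untreated libraries, 104 counts in WT AOM/DSS (4.77 CPM, interval 3.90 to 5.78) and 23 counts in the AOM/DSS library labelled knockout (0.726 CPM, 0.460 to 1.09). Counts were thus seen only after AOM/DSS, and the intervals of the 2 AOM/DSS libraries did not overlap. Measured against a floor of 3 counts in the untreated library, Csf3 was at least 40.1-fold higher in the WT pair and at least 5.26-fold higher in the pair labelled knockout. Between the AOM/DSS libraries it was 6.57-fold lower in the one labelled knockout.

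Csf3r, the G-CSF receptor of neutrophils and their precursors (chromosome 4, 126024550 to 126044440), was the member with the most counts in untreated WT colon, while per kilobase Retnlg stood higher there (1.54 against 0.704 CPM per kb). It stood at 2.54 CPM there, 4.01 CPM in the untreated library labelled knockout, 41.6 CPM in WT after AOM/DSS and 25.2 CPM in the AOM/DSS library labelled knockout. Both AOM/DSS libraries lay well above the untreated pair, in which the library labelled knockout was 1.58-fold higher (1.13 to 2.21). The ratio was 16.4 in the WT pair (12.7 to 21.5) and 6.28 in the pair labelled knockout (5.03 to 7.93).

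Cxcr2, the receptor for the neutrophil-attracting chemokines, lies on chromosome 1 from 74153989 to 74161246. It had 2 counts in untreated WT and 1 in the untreated library labelled knockout, then 233 counts (10.7 CPM) in WT after AOM/DSS and 246 counts (7.77 CPM) in the AOM/DSS library labelled knockout. Cxcr2 was 135-fold higher in the WT pair (36.9 to 1118) and 169-fold higher in the pair labelled knockout (30.0 to 6690). These wide intervals come from the 1 or 2 counts in the lower library. Per kilobase of merged exon, Cxcr2 reached 0.304 of the Csf3r level in WT AOM/DSS (0.262 to 0.351) and 0.366 in the AOM/DSS library labelled knockout (0.316 to 0.422). The ratio of both receptors was therefore similar in the AOM/DSS libraries, with overlapping intervals.

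S100a8 and S100a9 encode the subunits of calprotectin and lie side by side on chromosome 3, at 90668978 to 90670035 and 90692632 to 90695721. S100a8 had 1 count in untreated WT, 2 in the untreated library labelled knockout, 2009 in WT after AOM/DSS and 1969 in the AOM/DSS library labelled knockout, which is 0.0397, 0.0921, 92.1 and 62.2 CPM. S100a9 had 7, 13, 3993 and 2133 counts in the same order, or 0.278, 0.598, 183 and 67.3 CPM. Both had the order WT AOM/DSS, then AOM/DSS labelled knockout, then the untreated pair with overlapping intervals. S100a8 was 2322-fold higher after AOM/DSS in the WT pair (416 to 91760) and 675-fold in the pair labelled knockout (187 to 5579). S100a9 was 659-fold higher (320 to 1641) and 113-fold higher (65.7 to 212). Their balance differed between the AOM/DSS libraries: per kilobase, S100a8 stood at 0.378 of S100a9 in WT (0.359 to 0.399) and at 0.694 in the library labelled knockout (0.653 to 0.739). The gene counted directly before S100a8, S100a7a, did not share the pattern and held 7 to 17 counts in each library. Of the other S100 genes of chromosome 3, 3 of 8 past the count minimum were higher by the size rule after AOM/DSS in the WT pair (S100a4, S100a11 and S100a14) and 0 lower, with 2 higher and 2 lower of 8 in the pair labelled knockout. Over all genes 4.08% were higher and 3.88% lower in the WT pair, and 14.1% and 15.9% in the pair labelled knockout. After S100a9 comes the pseudogene Gm5284, with 2 counts at most.

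Retnlg, a resistin-like protein secreted by neutrophils, lies on chromosome 16 from 48872621 to 48874496. It stood at 0.913 CPM in untreated WT, 0.690 CPM in the untreated library labelled knockout, 26.2 CPM in WT after AOM/DSS and 17.2 CPM in the AOM/DSS library labelled knockout. Its order was that of Cxcr2, with the untreated pair overlapping. The ratios of the AOM/DSS over the untreated library were close, at 28.7 (18.9 to 45.6) and 25 (15 to 44.9). The other resistin-like genes went elsewhere: Retnlb, a goblet cell product, stood at 17.2 CPM in untreated WT, 110 CPM in the untreated library labelled knockout, 462 CPM in WT after AOM/DSS and 8.11 CPM in its counterpart labelled knockout.

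Of the granule proteins, Camp, the mouse cathelicidin (chromosome 9, 109847379 to 109849617), was the least abundant. It had 1 count in untreated WT, 0 in the untreated library labelled knockout, 17 in WT after AOM/DSS and 13 in the AOM/DSS library labelled knockout. The AOM/DSS pair had overlapping intervals (0.454 to 1.25 and 0.219 to 0.702 CPM), so a difference was not detectable at this depth. Ngp, a cathelin-related protein of secondary granules (chromosome 9, 110419747 to 110423012), had 0 counts in both untreated libraries. It reached 109 counts (5.00 CPM, 4.10 to 6.03) in WT after AOM/DSS and 265 counts (8.37 CPM, 7.39 to 9.44) in the AOM/DSS library labelled knockout. Ngp was at least 42.0-fold and at least 60.6-fold higher than in the untreated libraries, against the floor of 3 counts.

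Ltf, which encodes the iron-binding protein lactoferrin (chromosome 9, 111019271 to 111042767), was the member with the largest difference between the AOM/DSS libraries. It had 11 counts in untreated WT (0.436 CPM), 4 in the untreated library labelled knockout (0.184 CPM), 101 in WT AOM/DSS (4.63 CPM) and 1654 in the AOM/DSS library labelled knockout (52.2 CPM). The last library lay far above the other 3. Ltf was 10.6-fold higher after AOM/DSS in the WT pair (5.69 to 21.9) and 284-fold higher in the pair labelled knockout (111 to 1042). Per kilobase, Ngp stood at 3.05 times the Ltf level in WT AOM/DSS (2.30 to 4.03) and at 0.452 in the AOM/DSS library labelled knockout (0.396 to 0.515), so the balance of these granule genes was the opposite in the 2 libraries. The summed markers of squamous epithelium, Paneth cells and macrophages were also highest in the library with high Ltf, although not for each marker: Cd163 was lowest there, Mrc1 was highest in untreated WT, and Ang4, Krt1 and Krt10 were highest in the untreated library labelled knockout. Squamous markers summed to 91.4 CPM there and 9.40 to 17.4 CPM elsewhere, with Sprr3 at 0 in all libraries. Paneth cell markers summed to 2666 CPM against 21.6 to 159, and monocyte and macrophage markers to 948 CPM against 277 to 421. Eosinophil and mast cell markers summed to 174 CPM there and 62.3 to 159 CPM elsewhere, but Kit made up most of the sums elsewhere. Kit stood at 29.0 CPM there and at 55.7 CPM in WT after AOM/DSS. Mcpt1, Mcpt2 and Cpa3 stood at 46.8, 77.3 and 10.5 CPM there and at 1.83, 1.47 and 0.459 CPM in WT after AOM/DSS. Of the 6 markers past the count minimum in that pair, 5 were higher there by 2-fold or more and 0 lower, against 11.9% and 12.4% of all genes. B cell markers summed to 15.3 CPM there and 103 CPM in WT after AOM/DSS. The Paneth cell defensin Defa17 was at 0 in the other 3 libraries. The part of these cell types in the Ltf difference was not tested.

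**Figure D2:**
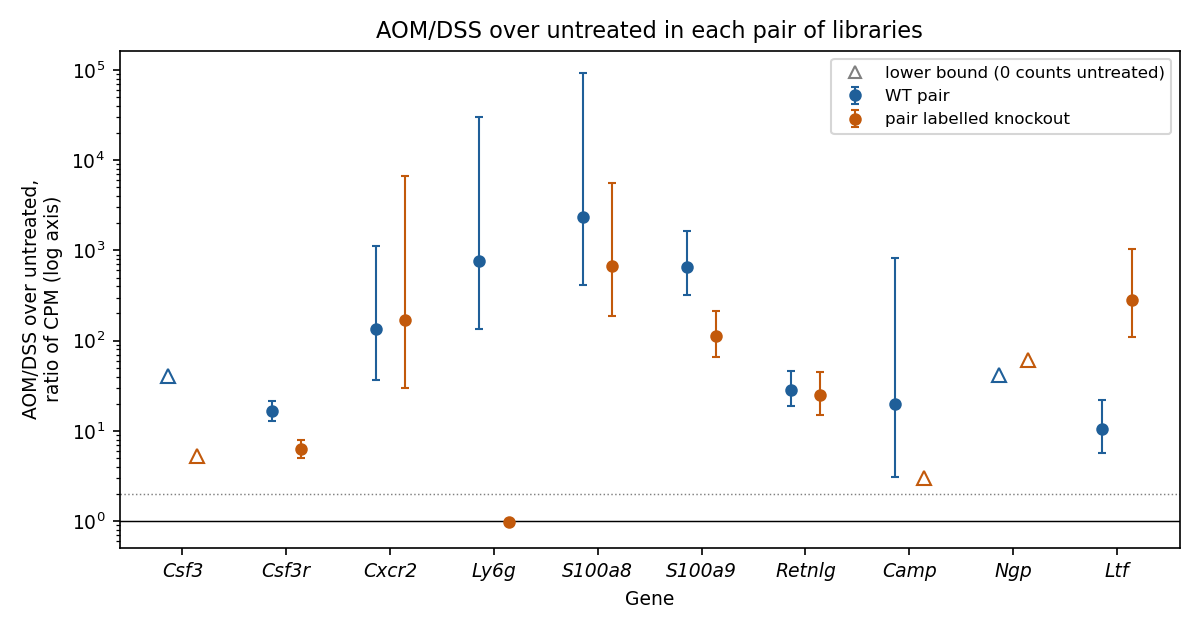
Ratio of CPM, AOM/DSS over untreated (log axis), for each gene in the WT pair and in the pair labelled knockout, with exact 95% counting intervals; open triangles are lower bounds where the untreated library had 0 counts, and the dotted line marks 2-fold. Ly6g lies at 0.969 in the pair labelled knockout, while every other gene lies above 2 in both pairs.

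Ly6g, a GPI-anchored surface protein used to mark mouse neutrophils, did not share the pattern of the other members. It lies on chromosome 15 from 75155240 to 75159126. It had 1 count in untreated WT, 1189 counts (54.7 CPM, 51.7 to 57.9) in the untreated library labelled knockout, 654 counts (30.0 CPM, 27.7 to 32.4) in WT after AOM/DSS and 1680 counts (53.0 CPM, 50.5 to 55.6) in the AOM/DSS library labelled knockout. It was thus high in 3 of the 4 libraries, and both libraries labelled knockout overlapped. Ly6g was 756-fold higher after AOM/DSS in the WT pair (135 to 29900), and its ratio in the pair labelled knockout was 0.969 (0.899 to 1.05), which became 1.19 when libraries were scaled by their totals alone. Between the untreated libraries it was 1379-fold higher in the one labelled knockout (247 to 54530). Only 2 members, Ly6g and Csf3r, passed the count minimum in the untreated pair, and Ly6g alone met the size rule. Over all 15352 genes there 4.46% were higher and 3.37% lower. In the untreated library labelled knockout S100a8 had 2 counts, Cxcr2 had 1, and Camp and Ngp had 0. Per kilobase, Ly6g stood at 50.7 times S100a9 there (29.5 to 95.5) and at 0.0908 of S100a9 in WT AOM/DSS (0.0834 to 0.0986). B cell markers were higher in the same pair, at a summed 80.0 CPM against 8.09 CPM in untreated WT, and Ang4, a gene of Paneth and goblet cells, stood at 127 and 4.84 CPM. Their part in the Ly6g difference was not tested.

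Ly6g lies near related genes of its family, so reads can be divided among copies and its count is uncertain. The division of reads was not tested. The genes within 500 kb of its start were examined after the values of Ly6g were seen. Besides Ly6g, 18 genes there had at least 50 counts in a library. Over all genes of the untreated pair, 4.46% were higher and 3.37% lower in the library labelled knockout. In that pair 14 of the genes near Ly6g passed the count minimum. Of these, 5 were at least 2-fold higher in the library labelled knockout and 0 lower: Ly6d, 2010109I03Rik, Ly6c2, BC025446 and 9030619P08Rik. On the log2(CPM + 1) scale the largest of these 5 differences was at 2010109I03Rik, with 7.90 CPM in untreated WT, 66.4 CPM in the untreated library labelled knockout, 157 CPM in WT after AOM/DSS and 84.3 CPM in the AOM/DSS library labelled knockout. As a ratio of CPM that of 9030619P08Rik was larger, with 0.476 CPM in untreated WT and 8.38 CPM in the untreated library labelled knockout. BC025446, the counted gene directly after Ly6g, stood at 7.26, 17.8, 24.4 and 16 CPM in the same order, which like Ly6g was lowest in untreated WT. I830127L07Rik, a pseudogene directly before Ly6g, stood at 0.516, 0.875, 1.19 and 5.65 CPM and was highest in the AOM/DSS library labelled knockout. Ly6c1, 111 kb before Ly6g and a marker of endothelium and monocytes, stood at 31.9, 31.6, 64.9 and 386 CPM, with a ratio of 0.989 between the untreated libraries (0.892 to 1.10). In the AOM/DSS pair 10 of the 18 were higher by 2-fold or more in the library labelled knockout and 1, Ly6f, was lower by that size. Over all genes of that pair 11.9% were higher and 12.4% lower. Smaller differences to the lower side were seen in the AOM/DSS pair at Lynx1, 2010109I03Rik, BC025446 and 9030619P08Rik.

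**Figure D3:**
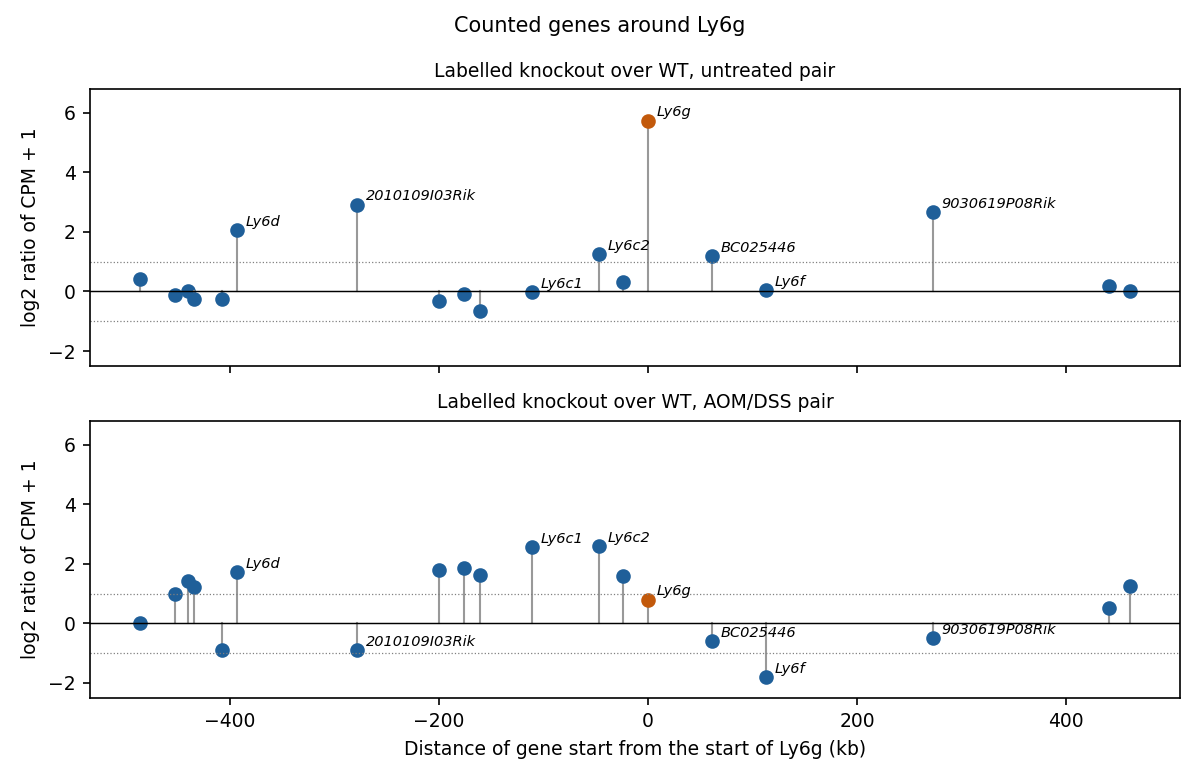
Log2 ratio of CPM + 1, labelled knockout over WT, for each counted gene by the distance of its start from that of Ly6g, in the untreated pair (top) and the AOM/DSS pair (bottom); dotted lines mark 2-fold. Ly6g (orange) lies at 5.74 in the untreated pair and at 0.80 in the AOM/DSS pair, and 2010109I03Rik at 2.92 and -0.89.

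Between the AOM/DSS libraries the members divided. Of the 10, 7 had lower CPM in the library labelled knockout (Csf3, S100a9, Camp, Csf3r, Retnlg, S100a8 and Cxcr2) and 3 had higher CPM (Ltf, Ly6g and Ngp). Each kept its side of 1 under all 5 scalings tried. By size, of the 9 past the count minimum, 1 met the rule as higher (Ltf) and 2 as lower (S100a9 and Csf3), against 11.9% and 12.4% of 15779 genes. Counts this small do not set the members apart from all genes. The median log2 ratio of the 10 members was -0.59, and that of all genes was 0.03. Ltf was 11.3-fold higher (9.22 to 13.9), Ly6g 1.77-fold (1.62 to 1.94) and Ngp 1.67-fold (1.33 to 2.11). S100a9 was 2.72-fold lower, Csf3r 1.66-fold, Retnlg 1.52-fold, S100a8 1.48-fold and Cxcr2 1.38-fold lower. Camp was 1.90-fold lower, but its ratio had an interval of 0.235 to 1.15. When libraries were scaled by their totals alone, the ratio of Cxcr2 had an interval of 0.730 to 1.05. In terms of the responses, the log2(CPM + 1) ratio of AOM/DSS over untreated was smaller in the pair labelled knockout for 8 members, by 4.94 for Ly6g, 1.75 for S100a9, 1.74 for Csf3, 1.20 for Csf3r and 0.28 to 0.63 for Camp, Cxcr2, Retnlg and S100a8. It was larger for Ngp (by 0.64) and Ltf (by 3.52). For Cxcr2 the direction depends on the pseudocount, since its log2 ratio of CPM was 7.07 in the WT pair and 7.40 in the pair labelled knockout. For 16383 genes this difference had a median of -0.03 and middle 50% from -0.67 to 0.57. These differences of responses have no test, since 1 library stands in each cell of the design.

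**Figure D4:**
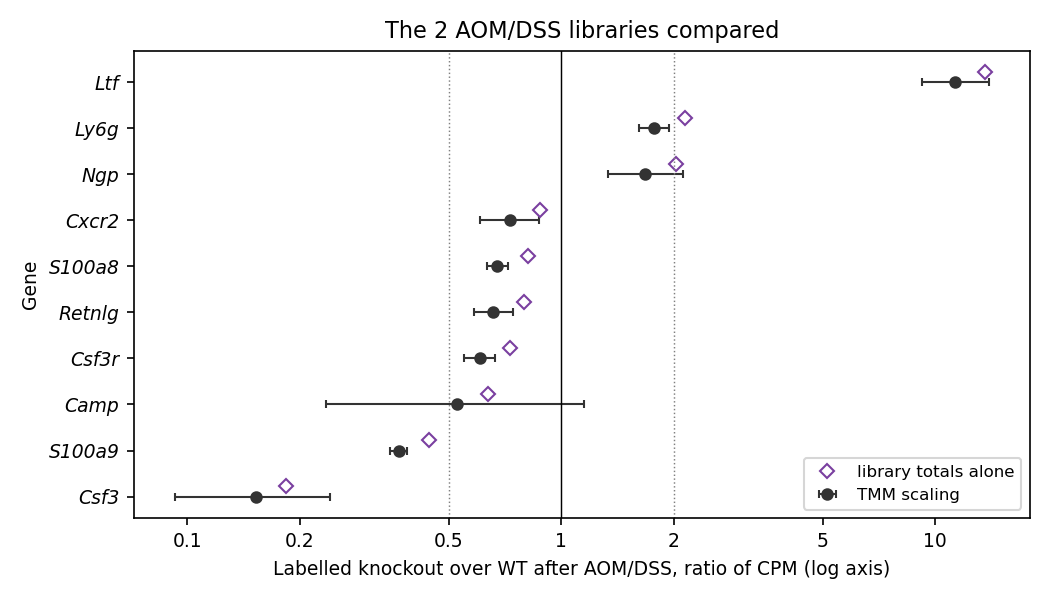
Ratio of CPM (log axis), the AOM/DSS library labelled knockout over WT AOM/DSS, with exact 95% counting intervals under TMM scaling (filled) and the ratio under library totals alone (diamonds, drawn slightly above); dotted lines mark 2-fold in each direction. Ltf lies at 11.3 and Csf3 at 0.152, and the interval of Camp alone crosses 1 under TMM scaling.

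Levels could also be ranked among the members, per kilobase of merged exon. In WT AOM/DSS the order was S100a9 (351 CPM per kb), S100a8 (133), Retnlg (44.2), Ly6g (31.8), Csf3r (11.5), Ngp (4.09), Cxcr2 (3.51), Csf3 (3.38), Ltf (1.34) and Camp (1.03). In the AOM/DSS library labelled knockout, S100a9 (129 CPM per kb) and S100a8 (89.6) again led, followed by Ly6g (56.3), Retnlg (29.1), Ltf (15.1), Csf3r (6.97), Ngp (6.85), Cxcr2 (2.55), Camp (0.541) and Csf3 (0.514). Cytosolic calprotectin genes thus stood above the receptors in both, while Ltf stood below Cxcr2 in the WT library and above Csf3r in the other, and Csf3 was last in the latter.

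Other genes of mature neutrophils showed the same separation of AOM/DSS from untreated libraries in part. Of 22 listed surface receptors, 17 had at least 50 counts in the WT pair, and 11 of these were at least 2-fold higher and 0 lower after AOM/DSS. By the same rule 15 of 17 were higher and 0 lower in the pair labelled knockout. Over all genes 4.08% were higher in the WT pair and 14.1% in the pair labelled knockout. The receptor list's median log2 ratio, over the 21 genes with a ratio in each pair and with a count of 0 set to 3, was 1.77 and 2.48. Clec4e, a C-type lectin of activated phagocytes, stood at 0.0794 CPM in untreated WT, 0.184 CPM in the untreated library labelled knockout, 20.0 CPM in WT after AOM/DSS and 15.9 CPM in the AOM/DSS library labelled knockout. Trem1, which amplifies inflammatory signals, stood at 0.238, 0.506, 18.8 and 11 CPM, and Il1r2, a decoy receptor for interleukin 1, at 0.833, 1.80, 31.6 and 22.2 CPM in the same order. All 3 were, like Cxcr2 and Csf3r, somewhat lower in the AOM/DSS library labelled knockout than in WT AOM/DSS. Fpr2, a receptor for formyl peptides, went the other way, at 3.30 CPM in WT after AOM/DSS and 15.2 CPM in the AOM/DSS library labelled knockout. Between the AOM/DSS libraries 7 of 17 receptors were higher by 2-fold or more in the one labelled knockout and 0 were lower by that size. Over all genes 11.9% were higher and 12.4% lower. Among the 7 receptors are Itgam, Itgb2, Fcgr3 and Fcgr4, which macrophages also express.

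Of 22 other granule and cytosol genes, 20 were in the table, and 9 of the 16 past the count minimum were higher by the size rule in the WT pair, with 0 lower. By the same rule 11 of 15 were higher and 0 lower in the pair labelled knockout. Over all genes 4.08% were higher in the WT pair and 14.1% in the pair labelled knockout. The list's median log2 ratios, over the 19 and 20 listed genes with a ratio, were 1.62 and 1.71. Chil3, a chitinase-like protein of neutrophils and macrophages, had 2 counts in untreated WT and 1 in the untreated library labelled knockout, then 45.9 CPM in WT after AOM/DSS and 114 CPM in the AOM/DSS library labelled knockout. Lcn2, a siderophore-binding protein of neutrophils and inflamed epithelium, stood at 2.14, 1.52, 74.5 and 306 CPM, and Hp, haptoglobin, at 12.3, 0.921, 138 and 116 CPM in the same order. Padi4, whose enzyme citrullinates histones when neutrophil extracellular traps form, stood at 0.436, 0.184, 2.94 and 53.1 CPM. Cd177, on the same list, went the other way, at 175.5, 470.3, 103.0 and 288.5 CPM in that order. It was lower after AOM/DSS in both pairs, without meeting the size rule. In the untreated pair it was higher by the rule in the library labelled knockout, where it was the highest gene of the list. Between the AOM/DSS libraries 9 of 16 were higher by 2-fold or more in the one labelled knockout, Padi4 by 18.1-fold (14.1 to 23.6), and 1, Stfa2l1, was lower by that size. Over all genes 11.9% were higher and 12.4% lower. The primary granule genes that mark early precursors were near 0: Mpo had 12 counts at most, Elane and Ctsg 3 at most and Prtn3 7 to 11. Of that list only Ctsc passed the count minimum, and it met the size rule in no pair. It fell just short in 2 pairs, since it stood at 216 CPM in the AOM/DSS library labelled knockout. It stood at 108 CPM in the untreated library labelled knockout and 110 CPM in WT after AOM/DSS. The log2(CPM + 1) ratios were 0.99 in the pair labelled knockout and 0.96 between the AOM/DSS libraries.

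Attractants and growth cues were higher by 2-fold or more after AOM/DSS in 8 of the 10 genes past the count minimum in the WT pair and in 11 of 12 in the pair labelled knockout, with 0 lower in either. Over all genes 4.08% were higher and 3.88% lower in the WT pair, and 14.1% and 15.9% in the pair labelled knockout. The list's median log2 ratio of CPM, over the 13 and 16 listed genes with a ratio and with a count of 0 set to 3, was 6.15 and 4.19. On the log2(CPM + 1) scale the median was 3.38 and 2.69 over the genes past the count minimum, and 1.41 and 2.28 over all 17 listed, where the order of the pairs was the opposite. Cxcl2, a Cxcr2 ligand, had 0 and 1 counts in the untreated libraries and stood at 49.5 CPM in WT after AOM/DSS and 20.1 CPM in the AOM/DSS library labelled knockout. Cxcl5, another Cxcr2 ligand, stood at 8.44 CPM in WT after AOM/DSS and 133 CPM in the AOM/DSS library labelled knockout, 15.8-fold higher (13.6 to 18.4). Il1b, an inflammatory cytokine, was 2.94-fold lower there, at 156 CPM in WT after AOM/DSS and 53.3 CPM. Il1a stood at 16.3 and 18.5 CPM, with a ratio of 1.14 (0.994 to 1.30). Between the AOM/DSS libraries the list held 5 genes of 12 that were higher by 2-fold or more in the one labelled knockout and 4 that were lower by that size. Over all genes 11.9% were higher and 12.4% lower. Of 7 granulocyte transcription factor genes past the count minimum, 1 was higher by 2-fold or more in the WT pair (Cebpb, 3.11-fold, 2.67 to 3.64), and 2 were higher (Cebpb and Spi1) and 1 lower (Cebpa) in the pair labelled knockout. Cebpe, which drives secondary granule genes in marrow, had 1 to 5 counts in each library.

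The genes nearest to a member were those with the smallest Euclidean distance between profiles of log2(CPM + 1), each centred on its own mean over the 4 libraries, among 14126 genes that are not members. Nearest to S100a9 of these were Il1b (1.20), Cxcl2 (1.32), Irg1 (1.46), Chil3 (1.95) and Hdc (2.13), against a median distance of 6.40. Nearest to Csf3r were Serpina3n (0.27), Clec4d (0.27), Il11 (0.33), Osm (0.39) and Cxcl3 (0.50), against a median of 3.11. Ltf had Padi4 (0.46), H19 (0.59), Serpina3f (0.71), Ubd (0.99) and Gata5 (1.19) beside it, with a median of 4.4. Ly6g had no neighbour as close: Tnip3 (1.97), Sval1 (1.99), Spink3 (2.26), 2010109I03Rik (2.33) and Nt5c1a (2.53), with a median of 4.79. Among the members themselves, Cxcr2 and Retnlg lay 0.41 apart, Cxcr2 and Csf3r 0.51, and S100a8 and S100a9 0.65. These distances rest on 4 libraries and describe them only.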

How the data were processed

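The deposited table holds raw read counts per gene symbol, which the authors left without normalization, in 4 columns named by sample title, with 0 columns of other samples. Per the submitters' processing notes, the genome build was GRCm38 (mm10), and libraries were made with an Ion Proton RNA-seq kit, per the labels' protocols. Aligner, counter, annotation and strand setting: not given in the sources used here. In 27 rows (0.142% of counts) a date stands in place of a symbol.

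TMM factors from edgeR 4.0.16 (R 4.3.3) were used to convert counts to CPM. Ratios have exact conditional (Clopper-Pearson) intervals and levels exact Poisson intervals. No molecular identifiers are named, so reads are not independent molecules and intervals cover counting error only. Counts of 0 were set to a floor of 3 per library for ratios. The additive model used filterByExpr, robust fitting and Benjamini-Hochberg adjustment over all genes tested, with DESeq2 1.42.0 as an alternative. The edgeR fit and the ratio intervals were also run on simulated data. For the fit these held treatment effects only, so they do not cover a difference of responses between the labels. Lengths and positions are merged exons of GENCODE M21.

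The members and the 19 gene and marker lists were chosen with earlier results of these data known. Named genes were all members, Card9, up to 4 genes per list that met the size rule with the largest ratio in any pair, the 5 nearest profiles of S100a9, Ly6g, Ltf and Csf3r, and the counted neighbours of S100a8, S100a9 and Ly6g. Others were named after their values were seen, among them the genes within 500 kb of Ly6g, Ang4, Cd177, Ctsc, Cebpe and primary granule genes. Not every gene that the rule picks is described. Alternatives were other scalings, pseudocounts of 0.5 and 5 CPM, count minimums of 200 and 0, thinned libraries, and leaving out the 5 genes that each exceed 1% of a library.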

Additional observations from a re-analysis of the deposited data

How the results depend on the processing

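The number of members at least 2-fold higher or lower was within 1.5 times the reported one in the WT pair, the pair labelled knockout and the untreated pair under every alternative run. In the WT pair, Csf3, Ngp and Ltf no longer met the size rule with a pseudocount of 5 CPM or at least 200 counts. In the AOM/DSS pair, 2 members were higher (Ltf and Ly6g) in place of 1 when libraries were scaled by their totals alone, and 1 was lower (S100a9) in place of 2 with a pseudocount of 5 CPM or with at least 200 counts, since Csf3 then no longer met the rule. Of 360 log2(CPM + 1) ratios of single members under the alternatives, 288 lay within the counting interval and 72 outside it (42 of them with another pseudocount). No called differences were reversed (0). These are not the printed folds, which have no pseudocount. For S100a8 in the WT pair, leaving out the genes above 1% of a library moved the log2(CPM + 1) ratio from 6.48 to 6.62, while the fold stayed at 2322. Scaling by totals moved the median log2 ratio of all genes from 0.03 to 0.30 in the pair labelled knockout and from 0.03 to 0.28 in the AOM/DSS pair, and the share of higher among called genes from 47.0% to 64.1% and from 48.9% to 64.2%.

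The additive fit depended on the tool and its settings. For treatment, edgeR's quasi-likelihood test called 0 genes, against 336 genes and 7 members with DESeq2, 81 genes and 6 members without the filter on low counts, and 23 genes and 5 members with library totals alone. S100a8, S100a9, Cxcr2 and Retnlg were called under each of these 3, and Ly6g and Camp (with no adjusted p in DESeq2) under none. For the label, 0 genes were called as reported, 255 with DESeq2, 62 without the filter and 15 with library totals alone, and 0 members under each. The cause was not tested. No paired analysis was possible because each group has 1 library. With 1 library per group, none could be left out within a group. Depth limits Camp in all libraries, Csf3 in the AOM/DSS library labelled knockout, Ly6g in untreated WT and the untreated levels of all other members except Csf3r, each resting on 23 counts or fewer.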
